A study of Mus musculus with 6 samples.

Results

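The primary cilium is a single antenna-like projection of the cell surface, built on a centriole and formed mostly when cells leave the cell cycle. Its assembly depends on intraflagellar transport (IFT), in which kinesin-driven trains carry material to the tip and dynein-driven trains bring it back, while the BBSome, a coat-like complex, carries membrane receptors out through the transition zone, the gate at the cilium's base. In the mammary gland, cilia are found on stromal and myoepithelial cells more than on luminal epithelium, and many breast cancer cells lack them. The transcripts of 45 genes of this machinery were followed in 2 mouse mammary carcinoma lines: 6 genes of the IFT-A complex, 12 of IFT-B, 5 motor subunits, 7 BBSome subunits, 3 genes of BBSome assembly and recruitment, 2 ciliary GTPases of the ARL family, 8 transition zone genes and 2 genes of the mother centriole. They were taken by symbol from a roster of known ciliary components, and all 45 were found among the 47729 genes of the deposited table. The choice of these genes was made with earlier results of these data known, which limits any comparison with all tested genes.

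The lines were 4T1 and 4TO7, each labelled as coming from a spontaneous tumour of BALB/c mice. Both were grown without treatment in DMEM with fetal bovine serum, and total RNA of 3 cultures per line was sequenced. As background, 4T1 spreads and grows in distant organs, whereas 4TO7 cells leave the primary site but seldom form visible metastases. Nothing in the labels says that the cultures were independent, so the spread behind each p-value is that of these cultures and may be only technical, and each line stands for 1 tumour-derived population. Serum keeps cells cycling, and no cell was scored for a cilium, so the values below are transcript levels only.

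The libraries held 33605566 to 39072639 reads assigned to genes. The lines separated along the first principal component, with 89.9% of the variance, and the second, with 5.27%, set 4TO7 replicate 2 (score 52.2) apart from the other 4TO7 libraries (-20.0 and -27.5). Of the defining epithelial markers, Epcam was at 15433 to 19060 in 4T1 but at 15.7 to 33.8 in 4TO7, and Cdh1 at 17314 to 21548 against 139 to 221. Krt7 and Krt19 were likewise nearly absent from 4TO7, which kept Krt8 (17550 to 25128) and Krt18 (8118 to 17067). All 6 epithelial markers were higher in 4T1, with summed levels of 184479 to 206994 there and 25835 to 42470 in 4TO7. Of the 6 haematopoietic markers, Cd3e and Adgre1 were at 0 in all libraries and the summed level was at most 39.6, and the 5 endothelial markers summed to 27.9 to 78.6, most of it from Tie1. In each of these lists 1 gene was tested, Csf1r, which was higher in 4T1 (22.2 to 34.8 against 1.87 to 5.24), and Tie1, which did not pass. The part of epithelial identity in the ciliary differences was not tested.

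Values are normalised read counts, given for replicates 1, 2 and 3 of each line in that order or as mean ± SD with n = 3 per line. A fold is the ratio of the line means. A gene was called when its adjusted p, from limma on log2(value + 1) with Benjamini-Hochberg adjustment over all tested genes, was under 0.05. Log2 fold changes are 4T1 minus 4TO7 with their standard error, so negative values are higher in 4TO7. Of the 45 genes, 44 passed the filter on low values, and these 44 had 21.2 or more in all 6 libraries.

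Most of the ciliary transport genes had more transcript in 4TO7. Of the 44 tested, 27 were higher in 4TO7, 2 were higher in 4T1 (Ift20 and Bbs12) and 15 did not pass. Over all 14276 tested genes 49% were called, 23.9% higher in 4TO7 and 25.1% higher in 4T1. The median log2 fold change of the 44 genes was -0.75, against 0.03 over all tested genes, and 39 of the 44 values were negative. In 28 of the 44 genes all 3 4TO7 values lay above all 3 4T1 values, and in 3 the order was the other way. Such separation was seen in 28.7% and 29.8% of all tested genes. A called difference of at least 2-fold toward 4TO7 was found for 16 of the genes, and the 2 genes called toward 4T1 both had smaller folds, whereas 14.2% of all tested genes had such a difference toward 4TO7. In the authors' deposited table, 29 of the 45 genes were higher in 4TO7 and 2 higher in 4T1 at an adjusted p under 0.05.

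**Figure D1:**
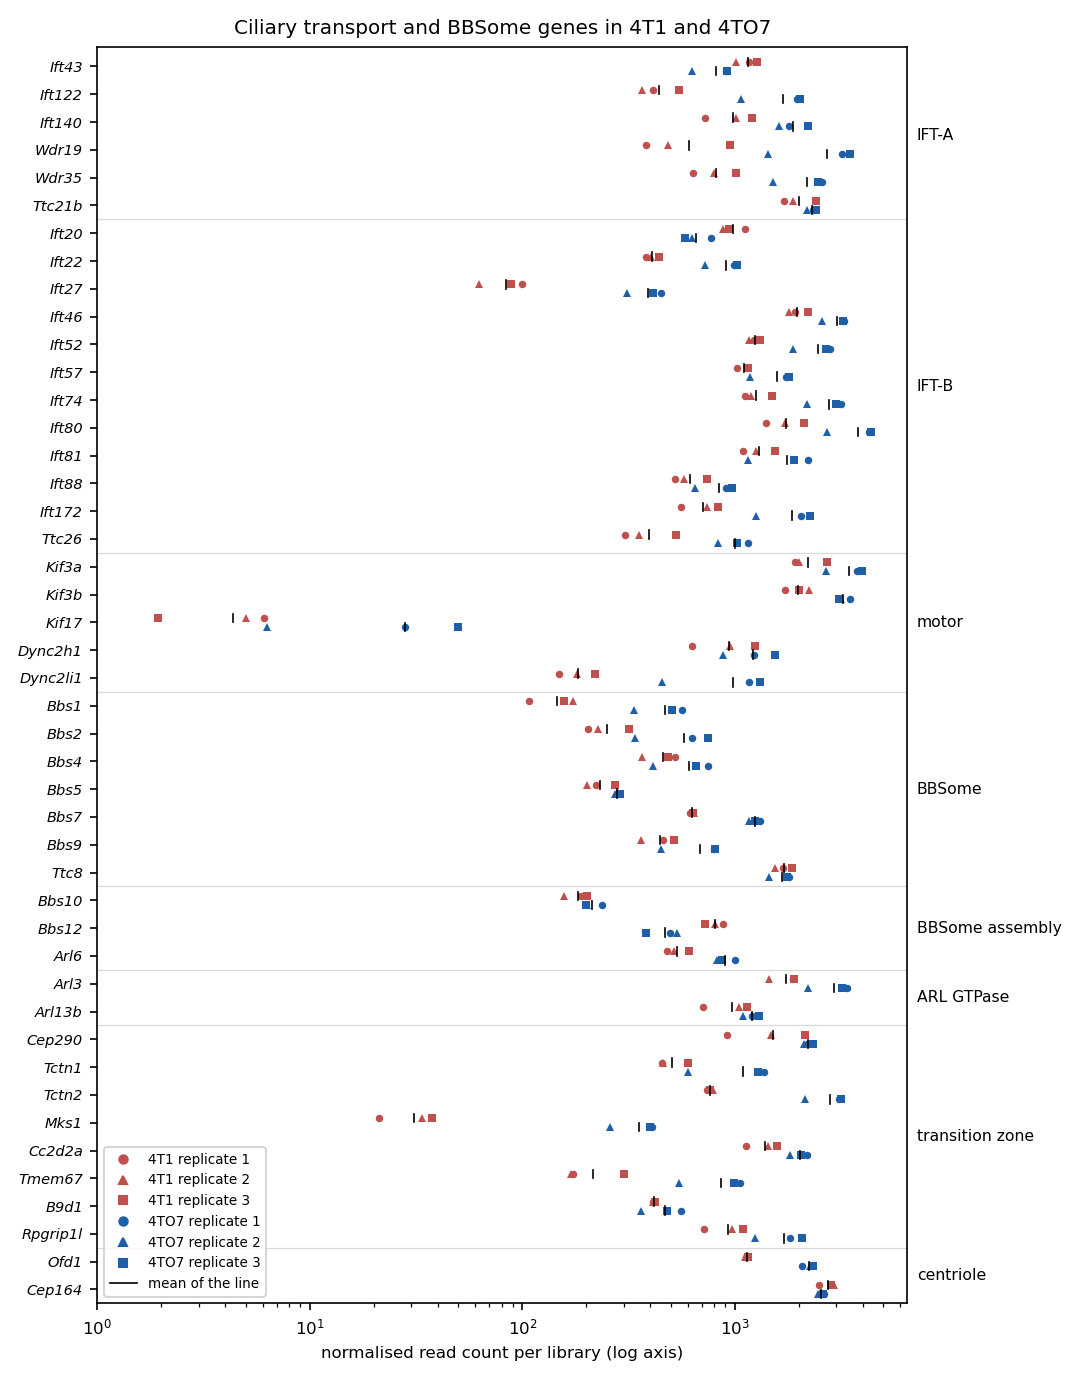
Normalised read counts of the 45 ciliary genes in each of the 6 libraries, on a log axis, grouped by complex, with colour for the line, marker shape for the replicate and a short line for the mean. The 3 4TO7 points lie apart to the right of the 3 4T1 points for 28 of the 44 tested genes, most widely for Mks1.

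The difference was also visible in sums over the genes. The 45 genes together held 36330, 39532 and 46786 normalised reads in the 4T1 libraries and 76093, 54808 and 76368 in the 4TO7 libraries. These sums are 0.0977%, 0.102% and 0.124% of all reads in 4T1, and 0.225%, 0.156% and 0.22% in 4TO7. The lowest 4TO7 library, replicate 2, still lay above the highest 4T1 library, replicate 3. In bulk RNA, fewer cells that express a gene and less RNA per cell cannot be told apart.

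**Figure D2:**
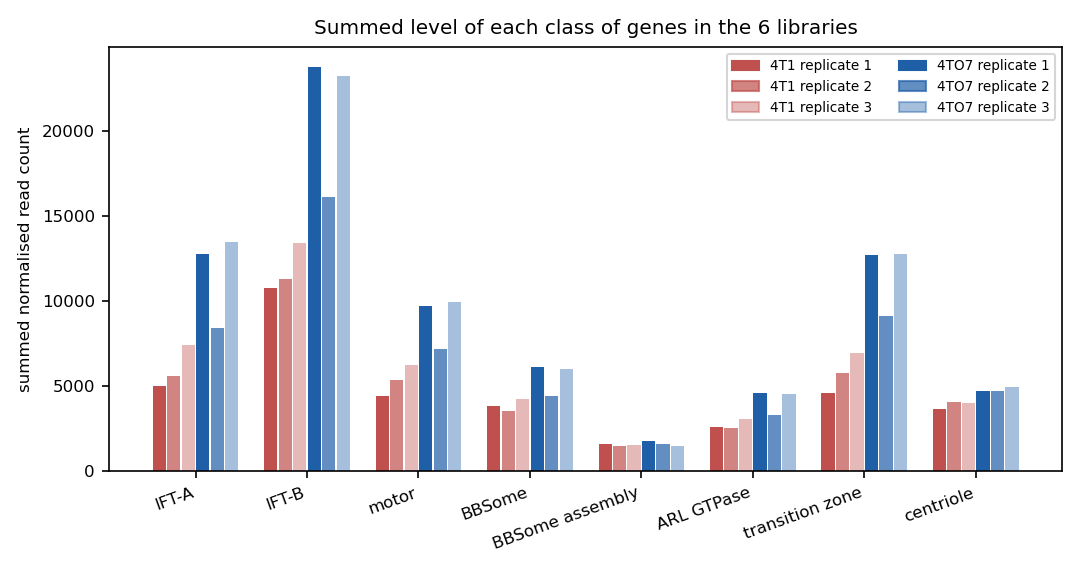
Summed normalised read count of each class of ciliary genes in the 6 libraries, as bars that start at 0, with colour for the line and shade for the replicate. The sums are higher in every 4TO7 library than in any 4T1 library for all classes except the 3 BBSome assembly and recruitment genes, whose sums overlap between the lines.

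The IFT-A complex turns cargo back toward the cell body and helps membrane proteins enter the cilium. Of its 6 genes, 4 were higher in 4TO7 and 2 did not pass, with a median log2 fold change of -1.18. Ift122, a scaffold subunit at the core of the complex, was at 411, 368 and 547 in 4T1 and 1972, 1065 and 2027 in 4TO7. Wdr19, another core subunit, was at 382, 483 and 952 in 4T1 and 3195, 1438 and 3474 in 4TO7. The lines did not overlap for either gene, and in both 4TO7 replicate 2 lay well below replicates 1 and 3. The fold was 3.82 for Ift122 (log2 fold change -1.89 ± 0.28, adjusted p = 0.000791) and 4.46 for Wdr19 (log2 fold change -2.17 ± 0.41, adjusted p = 0.00312). Wdr35, which links the core to the outer part of the complex, was at 634, 796 and 1018 in 4T1 and 2584, 1510 and 2466 in 4TO7, a 2.68-fold difference (log2 fold change -1.41 ± 0.25, adjusted p = 0.00235). Ift140, the remaining core subunit, was at 721, 1011 and 1208 in 4T1 and 1800, 1608 and 2200 in 4TO7, 1.91-fold higher in 4TO7 (adjusted p = 0.00727).

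The other IFT-A genes did not follow. Ttc21b, a peripheral subunit, was at 1706, 1887 and 2422 in 4T1 and 2324, 2183 and 2402 in 4TO7, with overlapping lines (log2 fold change -0.21 ± 0.16, adjusted p = 0.297). Ift43, the smallest subunit and a partner of Wdr35, had the reverse order, at 1161, 1013 and 1273 in 4T1 and 905, 629.9 and 916 in 4TO7. All 4T1 values of Ift43 were above all 4TO7 values, but the difference did not pass (log2 fold change 0.51 ± 0.19, adjusted p = 0.0565).

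The IFT-B complex carries tubulin and other building material outward and is needed for the cilium to grow. Of the 12 genes followed, 8 were higher in 4TO7, 1 was higher in 4T1 and 3 did not pass, with a median log2 fold change of -1.03. Ift27, a small Rab-like GTPase by which the BBSome and its cargo leave the cilium, was at 99.9, 62.8 and 88.8 in 4T1 and 449, 312 and 410.1 in 4TO7. That is a 4.66-fold difference in a gene with few reads in 4T1 (log2 fold change -2.22 ± 0.26, adjusted p = 0.000215). Ift22, the other Rab-like GTPase of the complex, was at 380.4, 402 and 438 in 4T1 and 994, 724 and 1020 in 4TO7, 2.24-fold higher in 4TO7 (log2 fold change -1.15 ± 0.19, adjusted p = 0.00135).

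Among the structural IFT-B subunits, Ift172, which binds near the tip end of the train, was at 559.9, 736 and 838 in 4T1 and 2059, 1265 and 2254 in 4TO7, a fold of 2.61 (log2 fold change -1.36 ± 0.25, adjusted p = 0.00263). Ttc26, also known as IFT56, was at 304, 356 and 528 in 4T1 and 1155, 834 and 1024 in 4TO7, a fold of 2.54 (log2 fold change -1.37 ± 0.24, adjusted p = 0.00199). Ift74, which with Ift81 forms the tubulin-binding module, was at 1112, 1192 and 1491 in 4T1 and 3159, 2195 and 3009 in 4TO7, a fold of 2.20 (log2 fold change -1.13 ± 0.19, adjusted p = 0.00157). In each of these genes the lowest 4TO7 value was above the highest 4T1 value. Ift80, a peripheral subunit, was at 1396, 1732 and 2121 in 4T1 and 4272, 2726 and 4385 in 4TO7, 2.17-fold higher in 4TO7 (adjusted p = 0.0046). Ift52, a core subunit, was 1.98-fold higher, with 1239 ± 73.1 in 4T1 and 2452 ± 502 in 4TO7 (adjusted p = 0.00272), and Ift46, which joins Ift52 in the core, was 1.53-fold higher, with 1971 ± 206 in 4T1 and 3018 ± 392 in 4TO7 (adjusted p = 0.0111). Without 4TO7 replicate 1 Ift46 had an adjusted p of 0.0533, the highest of a range from 0.0014 over the 15 alternatives.

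Ift20, the subunit that is also held at the Golgi and sorts membrane cargo for the cilium, had the opposite order. It was at 1115, 884 and 941 in 4T1 and 770, 627 and 582 in 4TO7, 1.49-fold higher in 4T1 (log2 fold change 0.57 ± 0.17, adjusted p = 0.0248). The lines did not overlap, but the adjusted p lay between 0.0112 and 0.0934 over the 15 alternatives and missed the threshold without 4T1 replicate 1, 4T1 replicate 3 or 4TO7 replicate 3 (0.0762, 0.0563 and 0.0934) and with equal library totals.

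Ift57, Ift81 and Ift88 did not pass. Ift88, whose loss prevents cilium formation in mice, was at 525, 575 and 739.5 in 4T1 and 912, 652 and 972 in 4TO7, and its lines overlapped (log2 fold change -0.46 ± 0.21, adjusted p = 0.107). Ift81, the partner of Ift74, was at 1093, 1264 and 1538 in 4T1 and 2199, 1154 and 1907 in 4TO7 (log2 fold change -0.40 ± 0.25, adjusted p = 0.224), with 4TO7 replicate 2 below 2 of the 4T1 libraries. Ift57, a peripheral subunit, was at 1026, 1139 and 1160 in 4T1 and 1739, 1177 and 1801 in 4TO7 (log2 fold change -0.48 ± 0.19, adjusted p = 0.0647), with 4TO7 replicate 2 just above the highest 4T1 value. Without 4TO7 replicate 2 the adjusted p was 0.00355 for Ift57, 0.0113 for Ift81 and 0.0186 for Ift88, and the full ranges over the 15 alternatives were 0.00355 to 0.208, 0.0113 to 0.57 and 0.0186 to 0.298. Ift57 also passed with equal library totals (0.0293), quantile normalisation (0.0415), edgeR (0.0372) and DESeq2 (0.0313). Without 4TO7 replicate 2, 11 IFT-B genes were higher in 4TO7, against 7 or 8 without another single library.

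The transport motors are heterotrimeric kinesin-II, the accessory kinesin Kif17 and cytoplasmic dynein-2. Of the 5 motor genes, 4 were tested, and 3 were higher in 4TO7 and 1 did not pass, with a median log2 fold change of -0.68. Dync2li1, the light intermediate chain of dynein-2, was at 148, 180.3 and 219 in 4T1 and 1165, 455 and 1321 in 4TO7. The lines were far apart and 4TO7 replicate 2 was again the lowest of its line, and the fold was 5.37 (log2 fold change -2.29 ± 0.39, adjusted p = 0.00176). Dync2h1, the heavy chain of the same motor, was at 628, 948 and 1243 in 4T1 and 1229, 882 and 1545 in 4TO7, with overlapping lines (log2 fold change -0.39 ± 0.29, adjusted p = 0.288).

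The kinesin-II motor subunits had smaller folds than Dync2li1. Kif3b was at 1725, 2226 and 2007 in 4T1 and 3498, 3149 and 3085 in 4TO7, 1.63-fold higher in 4TO7 (log2 fold change -0.71 ± 0.14, adjusted p = 0.00399). Kif3a was at 1913, 2002 and 2726 in 4T1 and 3759, 2673 and 3959 in 4TO7, a fold of 1.56 (log2 fold change -0.64 ± 0.20, adjusted p = 0.0293), with the lowest 4TO7 value under the highest 4T1 value. Kif3a missed the threshold without 4T1 replicate 1, 4T1 replicate 2, 4TO7 replicate 1 or 4TO7 replicate 3 (0.0993, 0.0995, 0.0986 and 0.101) and without the variance trend (0.0525), within a range of 0.00397 to 0.101 over the 15 alternatives. Kif17 was below the filter, at 6.05, 4.98 and 1.93 in 4T1 and 28.1, 6.29 and 49.8 in 4TO7, and so was not among the 44 genes. Its highest 4T1 value (6.05) and lowest 4TO7 value (6.29) were nearly equal and came from few reads. The scaling of the libraries can set their order, so the lines are not clearly apart. With no filter on low values Kif17 was higher in 4TO7 (log2 fold change -2.15 ± 0.65, adjusted p = 0.0242), and 4 motor genes and 28 of the 45 genes were then higher in 4TO7. In the authors' deposited table it has a log2 fold change of 2.70 ± 0.84 toward 4TO7 and an adjusted p of 0.00472.

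**Figure D3:**
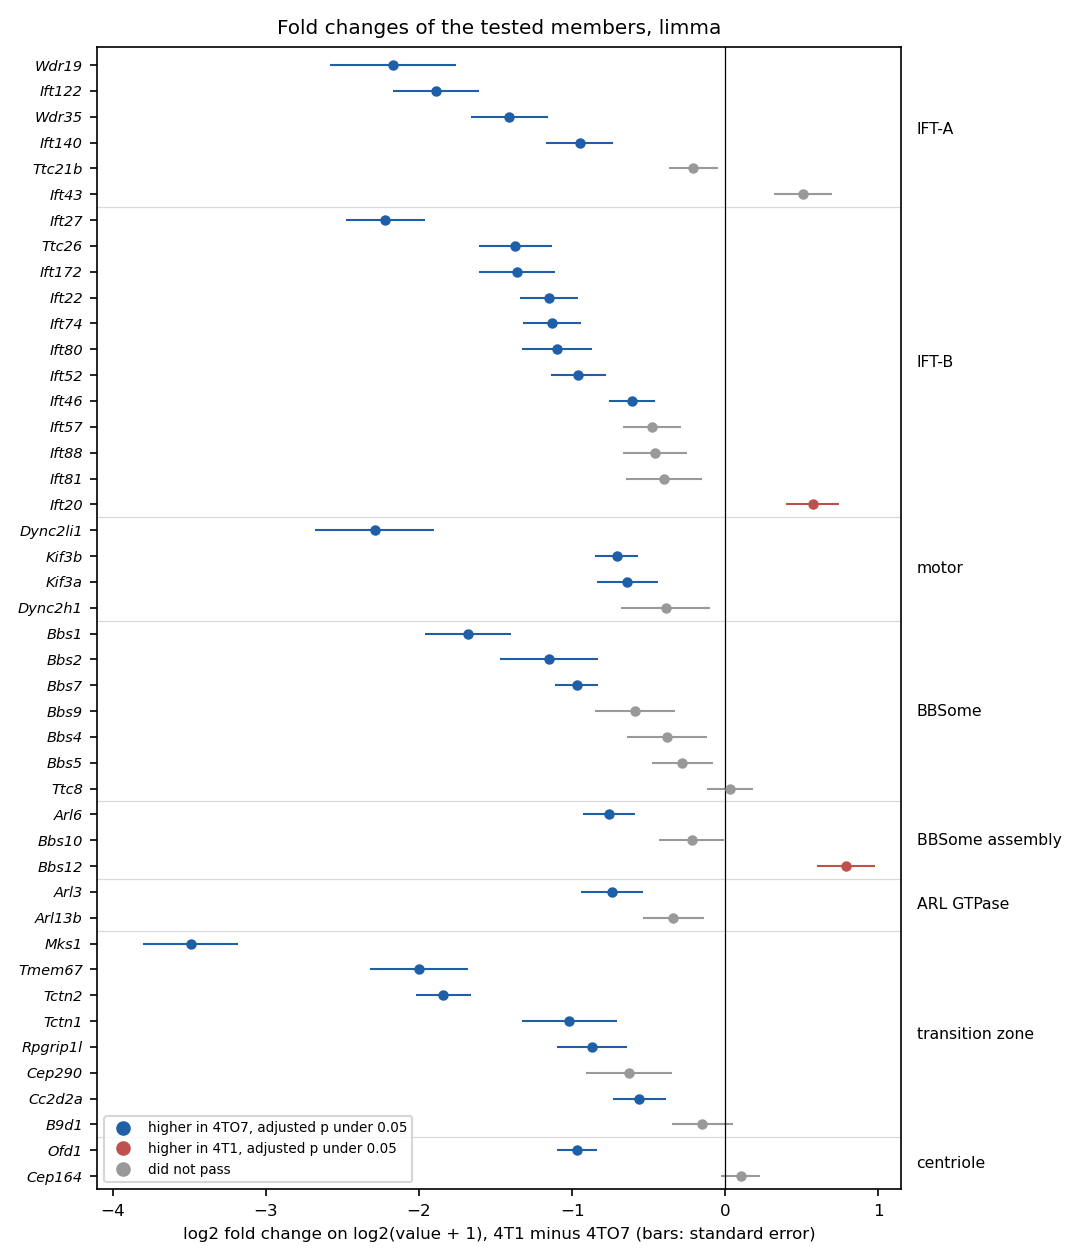
Log2 fold change (4T1 minus 4TO7) of the 44 tested ciliary genes with standard error bars, grouped by complex, with colour for the call. The 27 genes higher in 4TO7 run from Mks1 at -3.49 to Cc2d2a at -0.56, and only Ift20 and Bbs12 were called on the 4T1 side.

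The BBSome is the coat that picks up membrane cargo. Of the 7 subunits followed, 3 were higher in 4TO7 and 4 did not pass, and the median log2 fold change was -0.59. Bbs1, which binds the GTPase that brings the complex to the membrane, was at 107, 173 and 156 in 4T1 and 566, 335 and 507 in 4TO7, with no overlap and a fold of 3.22 (log2 fold change -1.68 ± 0.28, adjusted p = 0.00157). Bbs7 was at 615, 642 and 637 in 4T1 and 1316, 1165 and 1246 in 4TO7, so both lines were tight, and the fold was 1.97 (log2 fold change -0.97 ± 0.14, adjusted p = 0.000658). Bbs2, which pairs with Bbs7 in the complex, was at 203, 228 and 318 in 4T1 and 631, 341 and 750.5 in 4TO7, 2.30-fold higher in 4TO7 (log2 fold change -1.15 ± 0.32, adjusted p = 0.0175). Bbs2 missed the threshold without 4T1 replicate 1, 4T1 replicate 2, 4TO7 replicate 1 or 4TO7 replicate 3 (0.0746, 0.0616, 0.0617 and 0.0618), within a range of 0.000617 to 0.0746 over the 15 alternatives.

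The other 4 subunits did not pass. Bbs9 was at 457, 362 and 516 in 4T1 and 798, 449.6 and 808 in 4TO7 (log2 fold change -0.59 ± 0.26, adjusted p = 0.0989) and Bbs4 at 525, 365 and 484 in 4T1 and 748, 412 and 659 in 4TO7 (log2 fold change -0.38 ± 0.26, adjusted p = 0.259), and in both 4TO7 replicate 2 fell within the range of 4T1. Without that library the adjusted p was 0.00494 for Bbs9 and 0.0261 for Bbs4, against ranges of 0.00494 to 0.278 and 0.0261 to 0.609. Then 5 subunits were higher in 4TO7, against 2 or 3 without another single library. Bbs9 also passed with DESeq2 (0.0445). Bbs5 was at 221, 201 and 272 in 4T1 and 278, 272 and 288 in 4TO7 (log2 fold change -0.28 ± 0.20, adjusted p = 0.268). Ttc8, also known as BBS8, was close to equal at 1700 ± 158 in 4T1 and 1669 ± 193 in 4TO7 (log2 fold change 0.03 ± 0.15, adjusted p = 0.885), and its sign turned under 5 alternatives.

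The genes that build and recruit the BBSome split. Arl6, the GTPase that recruits the assembled BBSome to membranes, was at 478, 516 and 607 in 4T1 and 1004, 827 and 869.9 in 4TO7, 1.69-fold higher in 4TO7 (log2 fold change -0.76 ± 0.17, adjusted p = 0.00624). Bbs12, a chaperonin-like protein needed for BBSome assembly, was at 883, 809 and 725 in 4T1 and 494, 537 and 380.2 in 4TO7, 1.71-fold higher in 4T1 (log2 fold change 0.79 ± 0.19, adjusted p = 0.00856). It passed in all 15 alternatives. Bbs10, a chaperonin-like protein with the same role, was at 189, 157 and 202 in 4T1 and 238, 201 and 200.1 in 4TO7 and did not pass (log2 fold change -0.22 ± 0.21, adjusted p = 0.398). An overlap bears on Bbs12: GENCODE places 32 of its exon bases (1.31%) opposite Cetn4, which was 4.21-fold higher in 4TO7, and whether counting used strand is not stated.

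The ARL GTPases of the cilium itself move lipid-anchored cargo. Arl3, which releases lipidated proteins inside the cilium, was at 1872, 1443 and 1903 in 4T1 and 3380, 2201 and 3206 in 4TO7, 1.68-fold higher in 4TO7 (log2 fold change -0.74 ± 0.20, adjusted p = 0.0161). It missed the threshold without 4T1 replicate 2, 4TO7 replicate 1 or 4TO7 replicate 3 (0.0647, 0.0658 and 0.0573), within a range of 0.00131 to 0.0658. Arl13b, the activator of Arl3, was at 707, 1047 and 1141 in 4T1 and 1208, 1097 and 1301 in 4TO7, with overlapping lines (log2 fold change -0.34 ± 0.20, adjusted p = 0.192).

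The transition zone held the gene with the largest fold of the 44 tested. Of 8 transition zone genes, 6 were higher in 4TO7 and 2 did not pass, with a median log2 fold change of -0.95. Mks1, a B9-domain protein of the gate mutated in Meckel syndrome in people, was at 21.2, 33.9 and 37.6 in 4T1 and 408, 258 and 398 in 4TO7. The highest 4T1 library thus had fewer reads of Mks1 than the lowest 4TO7 library by a wide margin, the fold was 11.5 (log2 fold change -3.49 ± 0.31, adjusted p = 4.17e-05), and the call held in all 15 alternatives. Tmem67, a transmembrane protein of the same module, was at 172, 169 and 301 in 4T1 and 1053, 545 and 987 in 4TO7, a fold of 4.02 (log2 fold change -2.0 ± 0.32, adjusted p = 0.00137). Tctn2, a tectonic protein that works with both, was at 738, 793 and 768 in 4T1 and 3096, 2138 and 3152 in 4TO7, with 4T1 libraries close together and a fold of 3.65 (log2 fold change -1.84 ± 0.18, adjusted p = 7.17e-05). GENCODE classes this Tctn2 entry as a processed transcript.

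Rpgrip1l, a scaffold of the gate, was 1.84-fold higher in 4TO7, with 929 ± 193 in 4T1 and 1712 ± 419 in 4TO7 (adjusted p = 0.0151). Tctn1 was at 456, 459 and 601 in 4T1 and 1374, 603 and 1285 in 4TO7, a fold of 2.15 (log2 fold change -1.02 ± 0.31, adjusted p = 0.0256), with 4TO7 replicate 2 only just above the highest 4T1 value. Cc2d2a, which organises the tectonic complex, was 1.46-fold higher in 4TO7, with 1383 ± 232 in 4T1 and 2022 ± 185 in 4TO7 (adjusted p = 0.0236). These 3 calls depended on the libraries used. Only 3 of the 8 genes were higher in 4TO7 without 4T1 replicate 1, 4TO7 replicate 1 or 4TO7 replicate 3, when the adjusted p was 0.058, 0.0528 and 0.0549 for Rpgrip1l, 0.0937, 0.0914 and 0.0839 for Tctn1, and 0.0547, 0.0933 and 0.0693 for Cc2d2a. Without 4T1 replicate 2 it was 0.0862 for Tctn1 and 0.0529 for Cc2d2a, and the ranges over the 15 alternatives were 0.0013 to 0.058, 0.000227 to 0.0937 and 0.00755 to 0.0933.

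The value of Tctn1 has a further limit. GENCODE places 1574 of its exon bases (19%) opposite exons of Hvcn1, a proton channel gene, which was at 5.05, 6.98 and 6.76 in 4T1 and 395.8, 283 and 553 in 4TO7, and unstranded counting cannot tell reads of the pair apart. Cep290, which spans the gate between microtubules and membrane, was at 915, 1480 and 2141 in 4T1 and 2197, 2114 and 2334 in 4TO7 and did not pass (log2 fold change -0.63 ± 0.28, adjusted p = 0.089). Without 4T1 replicate 3, whose value was the highest of 4T1, its adjusted p was 0.0151, and with equal library totals it was 0.0434, within a range of 0.0151 to 0.214. B9d1, the B9-domain partner of Mks1, was at 415 ± 4.26 in 4T1 and 467 ± 97.9 in 4TO7, with overlapping lines (log2 fold change -0.15 ± 0.20, adjusted p = 0.568).

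At the mother centriole, Ofd1, which lies at the distal end of centrioles and in the satellites around them, was at 1131, 1118 and 1160 in 4T1 and 2071, 2264 and 2338 in 4TO7. Its 3 values within each line were close together, and the fold was 1.96 (log2 fold change -0.97 ± 0.13, adjusted p = 0.000443). Cep164, a distal appendage protein that docks the centriole to the membrane, was at 2499, 2933 and 2836 in 4T1 and 2629, 2451 and 2596 in 4TO7 and did not pass (log2 fold change 0.10 ± 0.13, adjusted p = 0.526), and its sign turned with equal library totals.

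Levels of different genes can be compared roughly per kilobase of exon. The length used is the union of all annotated exons of a gene. It can exceed the length of the transcript that is made, so ranks are approximate. On that scale, in mean normalised reads per kilobase, the highest 4TO7 levels among the 45 genes were those of Arl3 (1176), Ift74 (1050), Kif3a (966) and Ift52 (875), and the highest 4T1 levels were those of Arl3 (698), Ift43 (696), Ift20 (643) and Kif3a (617). The lowest tested gene in 4T1 was Mks1 at 7.64, followed by Bbs1 at 19.0, Tmem67 at 27.7 and Ift27 at 29.3. In 4TO7 those 4 genes were at 87.7, 61.2, 111 and 136. Dync2li1 per kilobase was at 97.7 in 4T1 and 524 in 4TO7, whereas its heavy chain Dync2h1 was at 57.5 and 74.6. Within IFT-B, Ift20 was at 643 in 4T1 against 476 for Ift74, and at 433 in 4TO7 against 1050, so the order of these genes turned between the lines. Spreads of these levels are those of the reads given above, since each is divided by a fixed length.

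Most of the ciliary genes shared an order of libraries within each line. Replicate 2 was the lowest of the 3 4TO7 libraries for 39 of the 44 tested genes (88.6%), against 43.5% of all tested genes. The median log2 ratio of replicate 2 to the mean of the other 4TO7 libraries was -0.53 over the ciliary genes and -0.02 over all tested genes, and it was -1.45 for Dync2li1, -1.21 for Wdr19 and -1.14 for Tctn1, but 0.30 for Bbs12. In 4T1, replicate 3 was the highest library for 35 of the 44 genes (79.5%, against 32.1% of all tested genes) and replicate 1 the lowest for 28 (63.6%, against 35.6%). These shares describe single libraries and carry no test.

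Levels of 9 proliferation genes also differed between libraries of a line. They summed to 140856, 167357 and 167760 in 4T1 and to 107746, 151749 and 122988 in 4TO7, so replicate 2 was the highest of the 4TO7 libraries for these genes and the lowest for the ciliary ones. Within 4T1, replicate 3 had the highest sum of both, for the proliferation genes by a small margin. Of the 9 genes, 2 were higher in 4T1, Mcm5 at 2.86-fold (adjusted p = 0.000346) and Cdk1 at 1.86-fold (adjusted p = 0.00263), and 7 did not pass. Without 4TO7 replicate 2, 6 of the 9 were higher in 4T1. Over all tested genes the share higher in 4T1 was 25.1%, or 29.2% without that library. Mki67, a general marker of cycling cells, was at 25182, 41352 and 41400 in 4T1 and 29189, 39306 and 37007 in 4TO7. Its adjusted p was 0.98. The part of proliferation in the ciliary differences was not tested.

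Without 4TO7 replicate 2, 32 of the 44 ciliary genes were higher in 4TO7 and 2 in 4T1, when 27.3% and 29.2% of all tested genes were. The 5 genes gained were Ift57, Ift81, Ift88, Bbs4 and Bbs9, and the folds of the leading genes were larger, at 6.81 for Dync2li1, 5.5 for Wdr19 and 13 for Mks1. Replicate 2, left out here, was the library lowest for most of these genes. Leaving out another single library instead gave 20 to 28 genes higher in 4TO7. Of the 27 genes higher in 4TO7, 20 passed in all 15 alternatives.

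**Figure D4:**
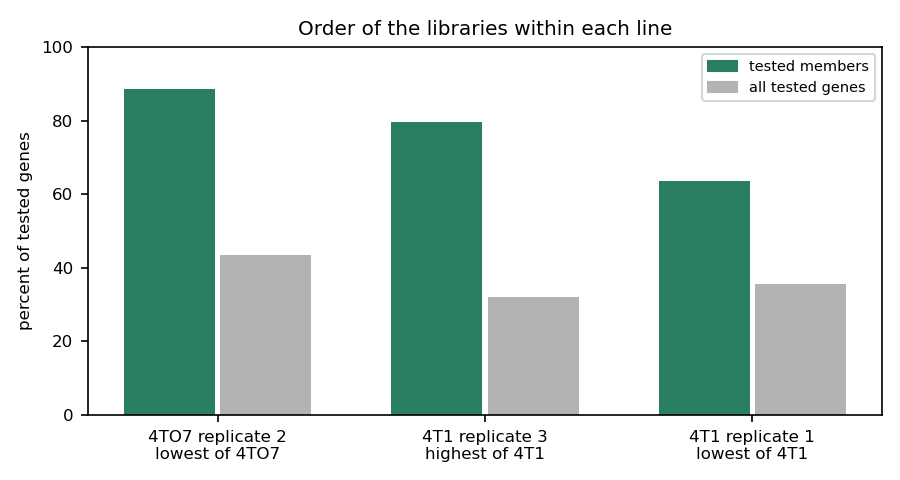
Percent of the 44 tested ciliary genes (green) and of all 14276 tested genes (grey) for which the named library was the lowest or highest of its line. Replicate 2 was the lowest 4TO7 library for 88.6% of the ciliary genes and 43.5% of all genes.

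Genes of the same compartments that are not among the 45 were counted from lists of known components. Across 5 lists of further IFT, motor, BBSome and cargo, transition zone, and centriole and distal appendage genes, 58 of 62 genes were tested, 21 were higher in 4TO7, 7 were higher in 4T1 and 30 did not pass. The median log2 fold change was -0.32, against 0.03 over all tested genes, of which 23.9% were higher in 4TO7 and 25.1% in 4T1. Without 4TO7 replicate 2 the counts were 25 and 9, when 27.3% and 29.2% of all tested genes were called. With equal library totals 4060 of all tested genes were higher in 4TO7, against 3412 otherwise. These shares are the reference for the lists that follow. The 2 of 9 motor genes toward 4TO7 and 3 of 14 cargo genes toward 4T1 are near them.

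Among 6 tested genes of further IFT subunits and adaptors, 3 were higher in 4TO7 and 1 in 4T1. Ttc30b, an IFT-B subunit, was at 90.8, 73.7 and 152 in 4T1 and 309, 180.3 and 303 in 4TO7, a fold of 2.5 (log2 fold change -1.34 ± 0.34, adjusted p = 0.0111), although Ttc30a1 and Ttc30a2, its close copies, had 1 read each over all libraries, and reads of near-identical copies may have been left out or divided in counting. Tulp3, which carries receptors into the cilium on IFT-A, was 1.67-fold higher (adjusted p = 0.00182), and Rabl2, a GTPase that starts IFT trains, was 1.91-fold higher (adjusted p = 0.00496). Cluap1, known as IFT38, was 1.57-fold higher in 4T1 (adjusted p = 0.0152), a call that was lost without 4TO7 replicate 3 (range of adjusted p over the 15 alternatives 0.00144 to 0.0514).

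Of 9 further motor genes, 2 were higher in 4TO7 (4 without 4TO7 replicate 2, 5 with equal library totals) and 1 in 4T1. Kifap3, the non-motor subunit of kinesin-II, was at 2464, 2743 and 3375 in 4T1 and 5354, 3978 and 5863 in 4TO7, 1.77-fold higher in 4TO7 (adjusted p = 0.00756), the same direction as its partners Kif3a and Kif3b. Dynlrb1, a dynein light chain, was 1.61-fold higher (adjusted p = 0.00552). Wdr60, an intermediate chain of dynein-2, was at 2458, 2858 and 2967 in 4T1 and 1812, 2119 and 2070 in 4TO7 and 1.38-fold higher in 4T1 (adjusted p = 0.0245), opposite to Dync2li1, but missed the threshold with equal library totals and without 4T1 replicate 2 or 3 or 4TO7 replicate 1 or 3 (range 0.011 to 0.11).

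Of 14 further BBSome and cargo genes, 5 were higher in 4TO7 and 3 in 4T1. Lztfl1, which controls BBSome entry into the cilium, was 2.19-fold higher in 4TO7 (adjusted p = 0.00249). Inpp5e, the lipid phosphatase of the ciliary membrane delivered by Arl3, was 2.03-fold higher (adjusted p = 0.00243). Mkks, the chaperonin-like partner of Bbs10 and Bbs12, was at 983, 800.1 and 786 in 4T1 and 1509, 1745 and 1338 in 4TO7, 1.79-fold higher in 4TO7 (adjusted p = 0.00366), so the 3 chaperonin-like genes had 3 different outcomes.

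Of 17 tested further transition zone genes, 7 were higher in 4TO7 and 1 in 4T1 (2 without 4TO7 replicate 2). Ahi1, a partner of the tectonic module, was at 295, 319 and 334 in 4T1 and 1037, 874 and 1100 in 4TO7, a fold of 3.18 (log2 fold change -1.66 ± 0.17, adjusted p = 8.55e-05). Invs, which marks the proximal cilium, was 3.11-fold higher (adjusted p = 0.000261), and B9d2, the third B9-domain protein beside Mks1 and B9d1, was 2.68-fold higher (adjusted p = 0.0023). Of the B9-domain genes, Mks1 and B9d2 passed and B9d1 did not.

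Of 13 centriole and distal appendage genes, 5 were higher in 4TO7 (8 with equal library totals) and 1 in 4T1 (2 without 4TO7 replicate 2). Ttbk2, the kinase that starts cilium assembly at the mother centriole, was at 297, 613 and 488 in 4T1 and 1131, 1021 and 1120 in 4TO7, a fold of 2.34 (log2 fold change -1.29 ± 0.26, adjusted p = 0.00394). Talpid3 was 2.13-fold higher (adjusted p = 0.00242), Cep131 1.88-fold (adjusted p = 0.00218) and Sclt1 1.87-fold (adjusted p = 0.00194).

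Genes that restrain or take down cilia did not share a direction. Of 10, 4 were higher in 4TO7 and 2 in 4T1 (4 in 4T1 without 4TO7 replicate 2). Cep97 and Ccp110, which together cap the centriole and block cilium growth, were 2.00-fold and 1.88-fold higher in 4TO7 (adjusted p = 0.00521 and adjusted p = 0.00173). Nedd9, the scaffold that activates Aurora A during cilium disassembly, was at 1666, 2278 and 2093 in 4T1 and 925, 629 and 1013 in 4TO7, 2.35-fold higher in 4T1 (adjusted p = 0.00186). Kif2a, a microtubule-depolymerising kinesin, was 1.84-fold higher in 4T1 (adjusted p = 0.00135).

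**Figure D5:**
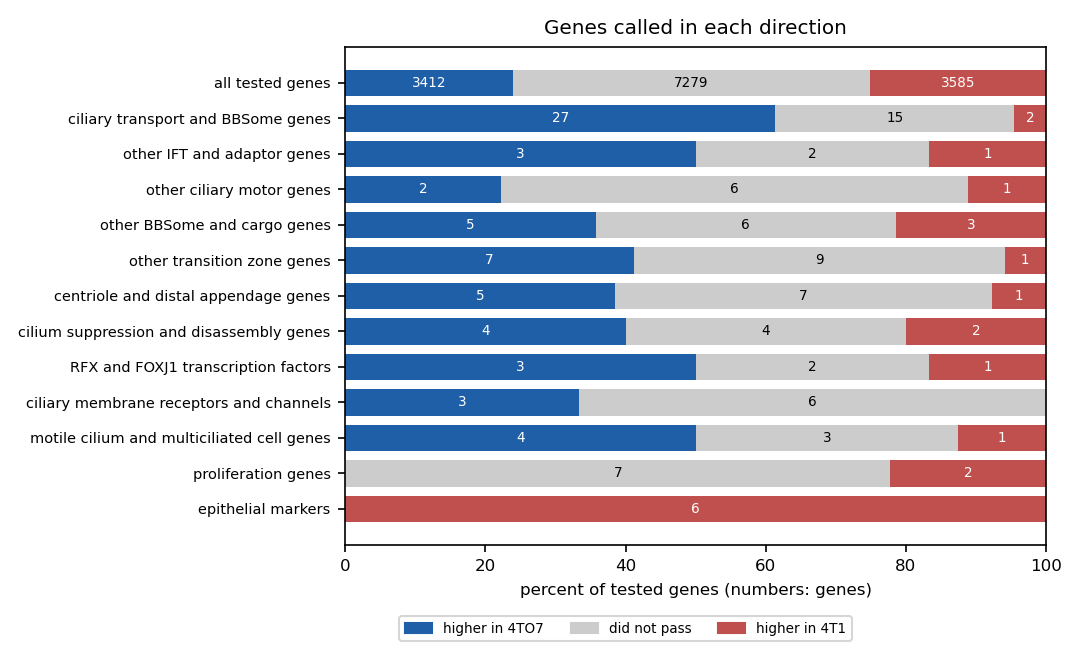
Percent of the tested genes of each list, and of all tested genes, that were higher in 4TO7, did not pass or were higher in 4T1, with the number of genes in each segment. The ciliary transport and BBSome genes have 27 of 44 higher in 4TO7 and 2 higher in 4T1, and all 6 epithelial markers are higher in 4T1.

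Among receptors and channels of the ciliary membrane, 3 of 9 tested genes were higher in 4TO7 and 6 did not pass, and the count higher in 4TO7 was 1 without 4T1 replicate 3, 4TO7 replicate 1 or 4TO7 replicate 3. Pkd2, a ciliary channel, was 1.63-fold higher (adjusted p = 0.0176), Evc2, a cofactor of Hedgehog signalling, 1.61-fold (adjusted p = 0.00564) and Pkd1, the receptor partner of Pkd2, 1.43-fold (adjusted p = 0.0298). Hedgehog signalling in mammals runs through the cilium. Smo, its transducer, was at 5471, 5466 and 4926 in 4T1 and 7000, 6378 and 6201 in 4TO7 and did not pass (log2 fold change -0.30 ± 0.12, adjusted p = 0.0713), and Gli1, its standard target, was at 12.1, 12.9 and 7.72 in 4T1 and 14.97, 16.8 and 13.9 in 4TO7 (log2 fold change -0.47 ± 0.32, adjusted p = 0.251). Gli2 and Gli3, effectors chosen here after their values were seen, were at up to 5.97 in any library and at 3054 ± 834 in 4T1 and 3038 ± 165 in 4TO7 (adjusted p = 0.91).

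RFX proteins are the main transcription factors of ciliary genes, and Foxj1 adds the programme of motile cilia. Of the 6 tested genes of this list, 3 were higher in 4TO7 and 1 in 4T1. Rfx3 was at 349, 636 and 778 in 4T1 and 1411, 1039 and 1310 in 4TO7, a fold of 2.13 (log2 fold change -1.16 ± 0.29, adjusted p = 0.0114). Rfx2 was 1.65-fold higher (adjusted p = 0.0421) and Rfx5, best known for MHC class II promoters, 1.58-fold (adjusted p = 0.0388). The count for 4TO7 was 1 without 4T1 replicate 1, 4T1 replicate 2, 4TO7 replicate 1 or 4TO7 replicate 3. Rfx1 was at 692, 998 and 891 in 4T1 and 1144, 965 and 1033 in 4TO7 and did not pass (log2 fold change -0.30 ± 0.18, adjusted p = 0.198). Foxj1 was at 94.8, 81.7 and 104 in 4T1 and 10.3, 12.6 and 13.9 in 4TO7, 7.63-fold higher in 4T1 (log2 fold change 2.84 ± 0.27, adjusted p = 5.88e-05), opposite to most of the ciliary genes.

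Markers of motile cilia and multiciliated cells were mostly near 0. Of 18, 4 were at 0 in all libraries (Gmnc, Spag6, Rsph4a and Deup1), and 8 passed the filter. The whole list summed to 151, 135.5 and 163 in 4T1 and to 993, 659 and 1190 in 4TO7. Most of the 4TO7 sum came from Dnaic2, an axonemal dynein intermediate chain at 5.04, 2.99 and 9.65 in 4T1 and 418, 140.4 and 449.9 in 4TO7, and from Dnah5, an axonemal dynein heavy chain. Dnah5 had 3 reads in all 4T1 libraries and 871 in all 4TO7 libraries, a ratio of 291 with an exact 95% interval of 99.1 to 1412 that covers counting error only (adjusted p = 4.5e-07). Ccdc39, a ruler of axonemal repeats, was at 13.1, 11.0 and 16.4 in 4T1 and 224, 110 and 253 in 4TO7 (adjusted p = 7.93e-05), and Ccno, a cyclin-like gene of multiciliated cells, was at 3.03, 4.98 and 4.83 in 4T1 and 31.8, 76.5 and 40.8 in 4TO7 (adjusted p = 0.000313). In total 4 of the 8 tested genes were higher in 4TO7 and 1, Foxj1, in 4T1. Their part in the ciliary differences was not tested.

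Promoter sequences of the genes were examined for the X-box, the inverted repeat bound by RFX proteins. RefSeq windows of 300 bases (250 before to 50 after the gene start, build GRCm38.p6) were given for 40 of the 45 genes; Ift122, Ift80, Ift81, Dync2li1 and Tmem67 had none. A strict pattern joined the half-sites GTTNCC and GGNAAC by any 2 bases, and a loose one joined GTNNCC and GNAAC by any 3 bases, both read on both strands. Every sequence that meets the strict pattern also meets the loose one, so the strict counts lie within the loose counts. Each gene was counted once, over all its windows. The strict pattern was in 4 of 40 ciliary genes (10%), against 0.529% of all 27025 genes with a window. Of the 14276 tested genes, 9649 had a window, and 0.653% of these held it. The loose pattern was in 9 of 40 (22.5%), against 2.49% and 3.14%. Among the 53 genes with a window in the 5 lists of further ciliary genes the counts were 4 and 10 (7.55% and 18.9%).

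The 8 sites below are those of 7 genes higher in 4TO7, shown to let the pattern be compared between genes, read 5′ to 3′ on the strand of the gene with the pattern in capitals. The first 4 meet the strict pattern, and the Tctn1 site lies at the edge of its window. The Tctn2, Bbs1 and first Ift22 sites meet the loose pattern on the opposite strand only. As printed, their capitals are the reverse complement of the pattern.
Mks1: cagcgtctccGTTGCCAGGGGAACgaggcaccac
Ttc26: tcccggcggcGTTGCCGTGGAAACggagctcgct
Bbs7: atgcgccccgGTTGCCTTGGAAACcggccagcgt
Tctn1: ggctgtgactGTTGCCCGGGCAAC
Tctn2: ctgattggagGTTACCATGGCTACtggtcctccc
Bbs1: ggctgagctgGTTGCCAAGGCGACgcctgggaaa
Ift22 first site: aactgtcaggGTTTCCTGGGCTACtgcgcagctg
Ift22 second site: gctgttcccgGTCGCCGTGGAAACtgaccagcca
The strict sites were centred 17 bases before the RefSeq gene start in Mks1, 26 bases before it in Ttc26, 114 bases before it in Bbs7 and 43 bases after it in Tctn1. GENCODE starts differ for some of the genes. Ttc26 starts there at chr6:38381469, so its site lies after that start. Bbs7 starts there at chr3:36613477, closer to its site. The positions that follow are those of the printed stretches, flanking bases included. The Mks1 stretch is at chr11:87853181-87853214 on the plus strand, and the Ttc26 stretch is at chr6:38381481-38381514, also on the plus strand. The Bbs7 stretch is at chr3:36613487-36613520 and the Tctn1 stretch at chr5:122264411-122264434, both on the minus strand. The other genes with a loose pattern were Ift57, centred 80 bases before the RefSeq start, and Bbs4, centred 30 bases after it, both of which did not pass the test.

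Of 23 genes higher in 4TO7 with a window, 4 held the strict and 7 the loose pattern (17.4% and 30.4%). Of the 17 other genes with a window, 0 and 2 did (0% and 11.8%). Large folds were found with and without a pattern. Mks1 had the strict pattern and a fold of 11.5, whereas Wdr19 and Ift27, with folds of 4.46 and 4.66, had neither pattern in their windows, and Bbs7, with the strict pattern, had a fold of 1.97. The 250 bases before the RefSeq start are given for these 3 genes of large fold, read on the strand of the gene, with the pattern in capitals where there is one. They lie at chr11:87852965-87853214 (Mks1, plus strand), chr5:65199446-65199695 (Wdr19, plus strand) and chr15:78174082-78174331 (Ift27, minus strand).
Mks1 upstream: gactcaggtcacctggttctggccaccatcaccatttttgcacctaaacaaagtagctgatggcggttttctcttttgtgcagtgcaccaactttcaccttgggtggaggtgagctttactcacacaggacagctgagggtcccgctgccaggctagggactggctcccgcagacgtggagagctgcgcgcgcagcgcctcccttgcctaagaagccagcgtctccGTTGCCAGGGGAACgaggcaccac
Wdr19 upstream: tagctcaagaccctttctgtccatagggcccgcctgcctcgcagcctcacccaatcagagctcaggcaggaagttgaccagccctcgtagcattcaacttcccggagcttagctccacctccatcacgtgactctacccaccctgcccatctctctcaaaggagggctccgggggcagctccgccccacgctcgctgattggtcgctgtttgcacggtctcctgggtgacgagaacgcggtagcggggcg
Ift27 upstream: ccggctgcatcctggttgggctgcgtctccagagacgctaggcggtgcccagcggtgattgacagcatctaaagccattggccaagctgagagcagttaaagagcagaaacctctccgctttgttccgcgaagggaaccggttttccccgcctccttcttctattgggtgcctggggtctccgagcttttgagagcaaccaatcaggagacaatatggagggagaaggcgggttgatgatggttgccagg
A pattern match is a run of letters and was not tested for binding, and a window without one says nothing of the factor.

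Several of the genes start close to a neighbour on the other strand. Within 1000 bases, 9 of the 45 had such a neighbour. Ift122 starts 99 bases from Mbd4, a DNA repair glycosylase gene, which was 1.74-fold higher in 4TO7 (adjusted p = 0.00343) against 3.82-fold for Ift122. Ift20 starts 29 bases from Tnfaip1, which was at 8403, 8448 and 7645 in 4T1 and 4087, 4411 and 4135 in 4TO7, so both genes of the pair were higher in 4T1 (adjusted p = 0.000321 for Tnfaip1). Dcun1d5, 74 bases from Dync2h1, was 1.57-fold higher in 4T1 (adjusted p = 0.0179), while Dync2h1 did not pass. The neighbours of Ift140, Ift46, Ift80, Arl3, Cep290 and Rpgrip1l did not pass.

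The 45 genes lie on 15 autosomes and the X chromosome, and no chromosome holds more than 7 of them. In GENCODE vM21 on GRCm38, Mks1 is a protein-coding gene at chr11:87853215-87863803, Wdr19 at chr5:65199696-65260415, Ift122 at chr6:115853470-115926699 and Ift20 at chr11:78536361-78541737, all on the plus strand. Mks1 and Ift20, which had opposite directions, are thus on the same chromosome. Ofd1, the X-linked gene of the group, is at chrX:166390033-166440704 on the minus strand and shares 131 exon bases with Trappc2 on the opposite strand, which was 1.82-fold higher in 4TO7.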

How the data were processed

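RNA of 3 libraries each of 4T1 and 4TO7 was compared. Reads were processed with STAR 2.5, featureCounts 1.5 and DESeq2 on build GRCm38, per the submitters' processing notes. The annotation release and any use of strand are not given in the sources used here. Per the file headers and the values themselves, the deposited signal is normalised: each library's read counts were scaled by a single size factor. All nonzero values were whole multiples of 1 read (100% within 1e-06), so the counts could be recovered (33605566 to 39072639 reads per library). The authors' deposited table also holds log2 fold changes with standard errors, a mean signal, a test score, p-values and adjusted p-values.

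Genes with at least 10 in at least 3 of 6 libraries were tested on log2(value + 1) with limma 3.58.1 in R 4.3.3 (trend, robust, two-sided, Benjamini-Hochberg, threshold 0.05), with line as the only term. On this scale changes of genes with few reads are understated. The self-test recovered most of the larger known changes in simulated counts. In that simulation far fewer genes differed than were called here and no library was set apart, so it does not gauge small folds in these data. The 15 alternatives changed the pseudocount, filter, scaling, variance model and libraries, blocked on the replicate number, or used edgeR 4.0.16 and DESeq2 1.42.0 on the recovered reads. Promoters are from RefSeq, and gene positions, exon lengths and overlaps are from GENCODE vM21. The 45 genes and the 13 gene lists (133 genes, all matched) were chosen with earlier results of these data known. Of each list, up to 4 genes that passed with the largest log2 fold changes are named, beside a fixed set (Rfx1, Rfx2, Rfx3, Foxj1, Mki67, Gli1 and Smo) and neighbouring or overlapping genes, which were looked up by position. Other list genes named at or near 0, as close copies or as abundant markers (Krt8, Krt18, Tie1, Cd3e, Adgre1, Ttc30a1, Ttc30a2, Gmnc, Spag6, Rsph4a and Deup1), and Gli2 and Gli3 were chosen after their values were seen. Some list genes are not reported here by name.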

Additional observations from a re-analysis of the deposited data

How the results depend on the processing

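Of the 44 tested ciliary genes, 42 kept the sign of their fold change in all 15 alternatives. The exceptions were Ttc8 (-0.01 with edgeR, -0.10 with equal library totals, -0.05 with quantile normalisation, and -0.07 to 0.10 when 1 library was left out, all log2, with -0.04 without 4T1 replicate 3) and Cep164 (-0.02 with equal library totals). The number higher in 4TO7, 27, ranged from 20 to 32 when 1 library was left out. The number higher in 4T1, 2, was 1 with equal library totals and 1 to 2 when 1 library was left out, since Ift20 was then lost. Equal library totals moved the median log2 fold change of all tested genes from 0.03 to -0.10. Over all tested genes the counts ranged from 2751 to 4162 higher in 4T1 and from 2491 to 3902 higher in 4TO7 when 1 library was left out. On the recovered reads edgeR called 28 ciliary genes higher in 4TO7 and 2 in 4T1 (3638 and 3336 of all genes), and DESeq2 29 and 2 (3665 and 3641). It is not settled whether replicate numbers pair the libraries. Deviations of same-numbered libraries from their line means correlated at -0.0135, 0.266 and 0.328. Those of unlike-numbered libraries correlated at -0.391 to 0.269. With the replicate number as a block, 30 ciliary genes were higher in 4TO7, with Ift57, Bbs9 and Cep290 gained, and 3 in 4T1, with Ift43 gained (adjusted p 0.0498, 0.0224, 0.0401 and 0.0213), against 3760 and 3990 of all tested genes, and the proliferation genes higher in 4T1 were 5 instead of 2. Of the single genes outside the ciliary group, Mki67 turned sign (-0.01 with edgeR, -0.12 with equal library totals, -0.18 with quantile normalisation, and -0.12 to 0.25 when 1 library was left out, with -0.11 without 4T1 replicate 2 or 3), as did Gli3 (-0.17 to 0.22 when 1 library was left out, with 0.00 without 4TO7 replicate 2). Without the variance trend 1 RFX gene was higher in 4TO7, and without the low-value filter 2 haematopoietic markers were higher in 4T1. The cause of these shifts was not tested. Few reads kept Kif17 and most motile cilium genes below the low-value filter. With no filter 28 ciliary genes, Kif17 among them, were higher in 4TO7.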
